A study of Rattus norvegicus with 32 samples.

Results

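The small intestine of the growing rat was followed here in lean Zucker (ZL) animals alone, by setting 4 ZL rats given a placebo for 30 days against 4 ZL rats killed at baseline. The members were the arrays whose titles name a control on placebo and those that name a lean reference, which makes 8 of the 32 arrays of the series. Both groups were male Zucker rats that carry 1 fa allele of the leptin receptor gene (Lepr +/fa) and stay lean. The placebo group swallowed milk powder, sucrose and vitamin C daily for 30 days, whereas the baseline group was euthanized after the adaptation period and received no placebo. The labels give all groups the same age of 6 weeks, although the placebo rats lived through 30 more days, so growth, the placebo and the time of killing cannot be told apart in this comparison. The remaining 24 arrays came from obese Zucker (ZO, Lepr fa/fa) rats at baseline, on placebo or on a probiotic, and they enter below through the shared estimate of the spread and, for the placebo and baseline rats, through a comparison side by side. RNA of the intestinal mucosa of each rat was hybridised to an Affymetrix Rat Gene 1.1 ST array, so the p-values measure the spread between rats. All levels are log2 RMA signals, in which a difference of 1 is a doubling, and levels of different probe sets are set against each other only to mark dim ones.

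The mucosa is a sheet of epithelium, renewed from the crypts, over a connective tissue that holds immune cells, fibroblasts and vessels. After weaning the rat intestine changes from the digestion of milk to that of solid food, and its enterocytes turn over their enzymes, mineral transporters and surface proteins. In the same weeks the connective tissue fills with lymphocytes and plasma cells, and cells that carry major histocompatibility complex (MHC) class II molecules present luminal antigens to T cells. In bulk tissue, fewer cells of a type and less RNA per cell cannot be told apart.

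Ileal markers were high in most rats, with exceptions in both groups. Fabp6, the cytosolic bile acid carrier of ileal enterocytes, measured 13.30, 8.71, 13.33 and 13.18 in ZL placebo rats C11, C13, C15 and C16, against 13.18, 13.41, 13.11 and 13.21 in ZL baseline rats C1, C2, C3 and C4. Slc10a2, the bile acid importer of the same cells, measured 11.69, 7.01, 11.31 and 11.39 in ZL placebo rats, against 11.94, 11.57, 11.29 and 9.11 in ZL baseline rats. Rat C13 therefore had low ileal markers, and C4 was low in Slc10a2. The mean of 10 ileal marker genes was 11.25, 9.52, 11.39 and 11.40 in ZL placebo rats and 11.47, 11.49, 11.31 and 10.57 in ZL baseline rats. The mean of 8 genes of the proximal small intestine was 8.93, 9.90, 9.13 and 9.18 in ZL placebo rats. It was 8.90, 9.18, 9.32 and 9.18 in ZL baseline rats and at most 9.42 on the 24 ZO arrays, so C13 was the highest. Peptide YY (Pyy), a hormone of distal gut endocrine cells, measured 5.17 in C13 against 8.99 to 9.13 in the other ZL placebo rats. On C13, 80 probe sets lay more than 2-fold above and 48 more than 2-fold below every other array of the series. Arrays C1 and C3 of the ZL baseline group, had upper quartiles of 7.38 and 7.33, the lowest of the 32. Each result below was therefore also computed without C13 and without C1 and C3, and their part in the results was not otherwise tested.

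More probe sets passed the test upwards than downwards over the 30 days in the lean mucosa. The aldo-keto reductases Akr1c19, Akr1c13 and Akr7a2, monoamine oxidase B, the MHC class II genes RT1-Da and Cd74 and the chaperone Hspa8 were higher in ZL placebo rats, while the epithelial surface protein Plet1, the vitamin D-degrading enzyme Cyp24a1 and the zinc and manganese transporters Slc39a4 and Slc30a10 were lower. In the limma model of all 32 arrays, 266 of 29214 probe sets (0.911%) passed a Benjamini-Hochberg adjusted p of 0.05, of which 214 were higher (0.733%) and 52 lower (0.178%) on placebo than at baseline. By 1 probe set per gene these were 141 genes that rose and 38 that fell. Most changes were small, with a median size of 0.47 on the log2 scale for the rises and 0.43 for the falls, and 17 and 2 probe sets exceeded 2-fold. The 4 ZL placebo rats lay wholly above the 4 ZL baseline rats for 181 of the 214, and wholly below for 45 of the 52, whereas 5.88% of all probe sets separated the groups in either direction. The called probe sets were selected for a difference between these same rats, so their separation is no further evidence. Many of the falls were in dim probe sets, as 24 of the 52 had a mean level under 4, a share of 46.2% against 38.6% of all probe sets. The calls rested on the model of all 5 groups. A model of the 8 ZL arrays alone called 0 probe sets (2743 at an unadjusted p under 0.05, against 4931 in the full model). A model of the 4 baseline and placebo groups called 1. The median standard error was 0.121 from the ZL arrays alone, and 0.114 both in the model of 4 groups and in the full model. The full model had 27 residual degrees of freedom and the model of the ZL arrays 6. What lowered the count was not tested.

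Single rats weighed on the count, as the plot of calls without each rat shows. The count was 353 without C11, 84 without C13, 113 without C15 and 82 without C16 of the ZL placebo group, and 32 without C1, 557 without C2, 81 without C3 and 1281 without C4 of the ZL baseline group. Without C13, 62 of the 214 rises and 8 of the 52 falls remained past the threshold. Without C1 and C3 together, 10 probe sets passed, among them Akr1c19, Cxcl11, Nab2 and Tm4sf4 higher and Shisa6 and Atp23 lower. All 266 kept their sign under every alternative setting in which they had a value. They were selected for a difference between these same rats, and some settings leave the log2 difference unchanged, so the kept sign is no further evidence. Of 35 genes described below as past the threshold, 13 passed without C13, and 5 without C1 and C3, namely Akr1c19, Cxcl11, Nab2, Shisa6 and Atp23. Scaling moved the balance of directions, with 42 higher and 24 lower after quantile normalization and 52 higher and 33 lower after centring each array on its median. Over all probe sets 49.1% of the differences were positive. With the dimmest 30% left out this share was 59.2%, so brighter probe sets were more often positive. The 53.0% over all genes that is set beside the lists below includes dim genes. At an unadjusted p under 0.05 there were 2837 higher and 2094 lower, but 1810 and 2033 after quantile normalization, 1881 and 3211 after centring, and 1078 and 1371 without C1 and C3, so the excess of rises among all probe sets turned with the scaling and with these 2 arrays.

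**Figure D1:**
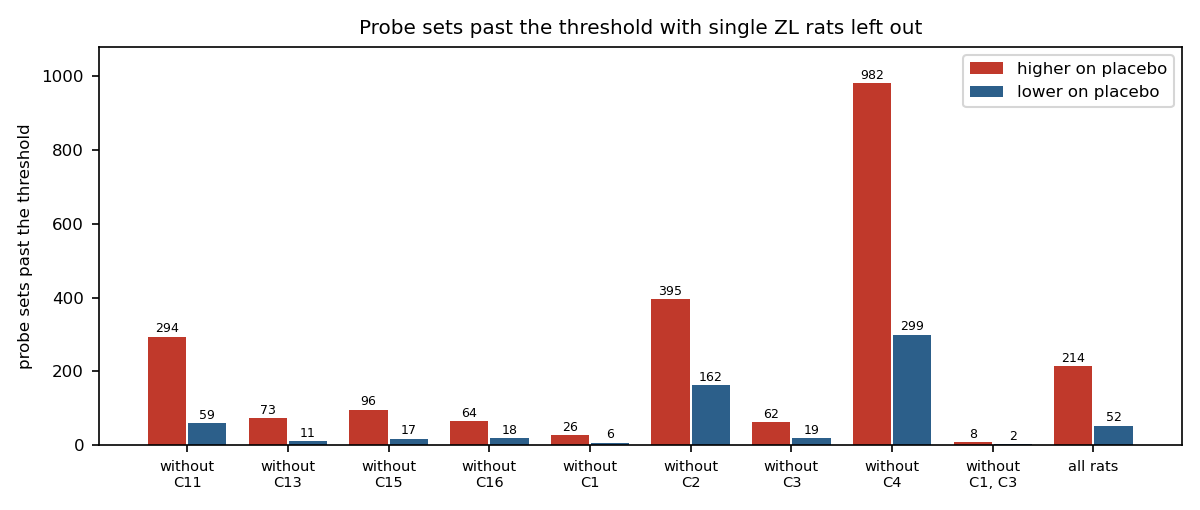
Number of probe sets past the adjusted p of 0.05 (y axis) higher and lower in ZL placebo than in ZL baseline rats, with each of the 8 rats left out, without C1 and C3, and with all rats (x axis). Of the counts with 1 rat left out, the lowest was 32, without C1, and the highest 1281, without C4.

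Among genes with a symbol, the rise of greatest size was in Akr1c19. Akr1c19, an aldo-keto reductase of the family that acts on steroids, prostaglandins and foreign carbonyls (chr17:70913916-70934959, GRCr8), measured 8.04, 8.84, 8.08 and 8.14 in ZL placebo rats, against 7.11, 6.84, 7.03 and 7.0 in ZL baseline rats. Every placebo rat stood clear of every baseline rat, C13 highest. The difference was 1.28 ± 0.16 (log2, SE), or 2.43-fold (adjusted p = 0.000191). It was 1.10 without C13 (adjusted p = 0.00154) and 1.36 without C1 and C3 (adjusted p = 0.00755). Akr1c13, its neighbour in the same cluster (chr17:70874110-70907518), measured 6.01, 6.17, 6.0 and 5.78 on placebo and 5.49, 5.10, 4.62 and 4.37 at baseline. The groups did not overlap, the baseline rats being more scattered, and the difference was 1.09 ± 0.26 (adjusted p = 0.038, and 0.105 without C13). These genes are close paralogs, and how far the probes of each read the other was not tested. Akr7a2, which reduces aflatoxin aldehyde and succinic semialdehyde, was 0.46 ± 0.09 higher (adjusted p = 0.0178, and 0.0439 without C13), with 10.04, 10.14, 10.28 and 10.02 on placebo against 9.51, 9.70, 9.57 and 9.85 at baseline. Of the 17 aldo-keto reductases measured, these 3 rose and none fell, where 0.733% of all probe sets were higher. Of the 17, 14 had a positive difference, and the median was 0.19, against 0.01 and 53.0% positive over the 17245 genes.

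Maob, monoamine oxidase B of the outer mitochondrial membrane, which oxidizes phenethylamine and dopamine (chrX:8490405-8594065), measured 9.97, 9.82, 10.05 and 10.27 in ZL placebo rats and 9.04, 9.18, 9.06 and 9.31 in ZL baseline rats. The gap between the groups was wider than the spread within either. The difference was 0.88 ± 0.15 (1.84-fold, adjusted p = 0.00335). It stayed past the threshold with any of the 8 rats left out, but not without C1 and C3 together (0.79, adjusted p = 0.142). Abat, which breaks down the transmitter GABA, measured 9.10, 9.29, 9.26 and 9.51 on placebo and 8.44, 8.76, 8.36 and 8.70 at baseline, again without overlap (0.73 ± 0.15, adjusted p = 0.0196). Among the 7 genes of amine oxidation and breakdown, Maob alone passed, where 0.733% of all probe sets were higher. Amacr, the racemase that prepares branched-chain fatty acids and bile acid intermediates for peroxisomal oxidation, measured 7.11, 7.78, 7.30 and 6.94 on placebo and 5.80, 6.44, 6.27 and 6.79 at baseline (0.96 ± 0.20, adjusted p = 0.0224). Its groups did not overlap, but C16 on placebo and C4 at baseline lay close together, and without C13 the adjusted p was 0.0917. Cyp4f1, a hydroxylase of fatty acids and leukotriene B4, rose by 0.46 (adjusted p = 0.0142), and was the 1 of 17 cytochromes P450 of families 1 to 4 to pass. Macrod1, which removes ADP-ribose from proteins, rose by 0.81 (adjusted p = 0.0203, and 0.0869 without C13).

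**Figure D2:**
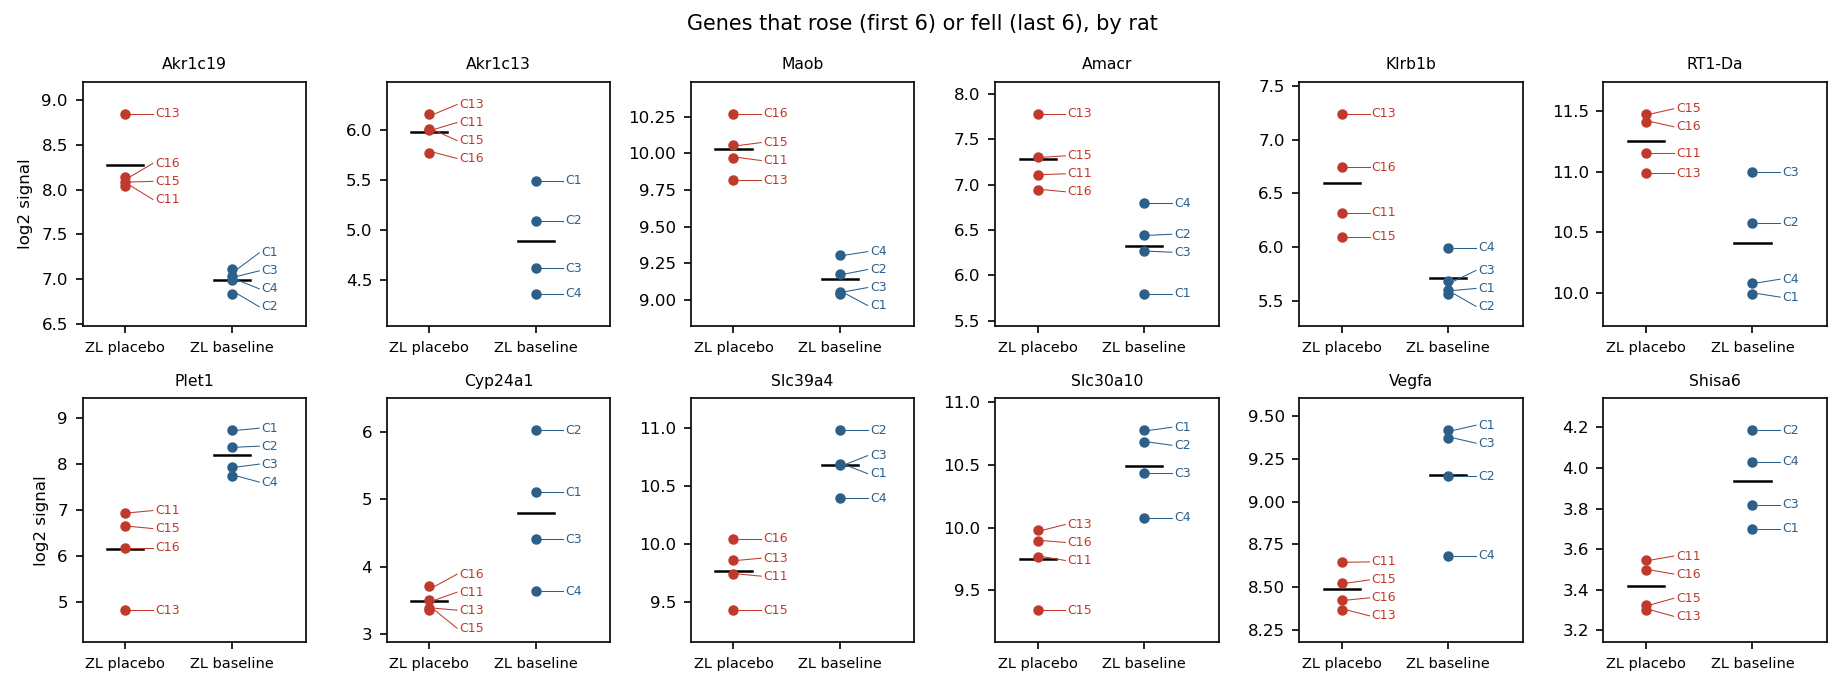
Log2 signal (y axis, a range of its own in each panel) of 6 genes that rose and 6 that fell, in the 4 ZL placebo rats (left in each panel) and the 4 ZL baseline rats (right), with the rat beside each point and the group mean as a bar. The genes were picked from those past the threshold in these same rats. The groups did not overlap for 10 of the 12 genes, RT1-Da and Cyp24a1 being the exceptions, and C13 was the lowest point of Plet1 at 4.83.

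Plet1 and Cyp24a1 fell by the greatest amounts. Plet1, a membrane-anchored protein known from epithelial progenitors of the mouse (chr8:59738639-59750062), measured 6.95, 4.83, 6.65 and 6.18 in ZL placebo rats, against 8.74, 8.37, 7.94 and 7.75 in ZL baseline rats. No placebo rat reached the lowest baseline rat, and C13 lay well below the rest. The difference was -2.05 ± 0.43 (4.14-fold lower, adjusted p = 0.0203). Without C13 it was -1.61 and no longer passed (adjusted p = 0.0869).

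Cyp24a1, the mitochondrial enzyme that inactivates the hormone form of vitamin D and is itself switched on by it (chr3:179694647-179709083), measured 3.51, 3.39, 3.36 and 3.71 on placebo and 5.11, 6.03, 4.41 and 3.64 at baseline. The placebo rats were uniformly low, while the baseline rats spread widely and C4 overlapped the placebo range. The difference was -1.30 ± 0.28 (adjusted p = 0.0224, and 0.0654 without C13). Slc30a10, the manganese exporter (chr13:99529664-99584442), measured 9.77, 9.98, 9.34 and 9.90 on placebo and 10.78, 10.68, 10.44 and 10.08 at baseline, with no overlap (-0.75 ± 0.18, adjusted p = 0.0367, and 0.052 without C13). These 2 were the only ones of 13 genes of the vitamin D response and calcium absorption to pass, where 0.178% of all probe sets were lower. S100g, the calcium-binding protein calbindin-D9k of the enterocyte, measured 10.17, 11.05, 9.63 and 9.61 on placebo and 11.52, 11.67, 11.18 and 10.52 at baseline, a difference of -1.10 ± 0.41 that did not pass (adjusted p = 0.164). The list had 11 negative differences of 13 and a median of -0.17, where 47.0% of the 17245 genes were negative. The mean of the 13 genes was 7.12, 7.2, 7.1 and 7.15 in ZL placebo rats and 7.63, 7.59, 7.40 and 7.25 in ZL baseline rats, without overlap, which was so for 6 of the 56 lists (3 higher and 3 lower). Of single probe sets, 5.88% separated the groups in either direction.

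Slc39a4, the zinc importer of the enterocyte's luminal membrane (chr7:110214017-110218202), measured 9.74, 9.86, 9.43 and 10.05 in ZL placebo rats and 10.68, 10.98, 10.69 and 10.39 in ZL baseline rats. The highest placebo rat lay below the lowest baseline rat, and the difference was -0.92 ± 0.21 (1.89-fold lower, adjusted p = 0.0342, and 0.0722 without C13). Slc30a5, which moves zinc into the secretory pathway, changed the other way, with 9.12, 9.45, 9.25 and 9.17 on placebo against 8.68, 8.94, 8.47 and 8.99 at baseline (0.48 ± 0.09, adjusted p = 0.0151, and 0.0643 without C13). Slc30a10, counted above with the vitamin D genes, is in this list as well. The other 11 of 14 zinc and manganese genes did not pass, and the median of the list was 0.03. Of all probe sets, 0.733% were higher and 0.178% lower.

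Vegfa, the growth factor of blood vessels, measured 8.64, 8.36, 8.52 and 8.42 in ZL placebo rats and 9.42, 9.15, 9.37 and 8.68 in ZL baseline rats. C4 came close to the placebo range without entering it, and the difference was -0.67 ± 0.16 (adjusted p = 0.0351, and 0.103 without C13). Efna1, a membrane-bound ephrin ligand, fell by 0.56 on the log2 scale (adjusted p = 0.0142, and 0.0575 without C13), and Atp23, a protease of the inner mitochondrial membrane, fell by 0.73 (adjusted p = 0.0359, and 0.0626 without C13). Atp23 had 6.58, 6.65, 6.36 and 6.33 on placebo against 6.69, 7.30, 7.03 and 7.82 at baseline, and without C1 and C3 the difference was -1.08 (adjusted p = 0.0139). The other named falls were in genes of low signal. Ppp1r3g, a subunit that brings a phosphatase to glycogen, measured 3.73, 3.82, 3.67 and 3.98 on placebo and 4.50, 4.23, 4.27 and 4.31 at baseline (-0.53 ± 0.09, adjusted p = 0.00559). Shisa6, an auxiliary protein of AMPA receptors in neurons, measured 3.55, 3.30, 3.33 and 3.5 on placebo and 3.70, 4.19, 3.82 and 4.03 at baseline (-0.52 ± 0.10, adjusted p = 0.0142). Cib4, a calcium- and integrin-binding protein, measured 2.88, 2.78, 2.73 and 2.90 on placebo and 3.44, 3.12, 3.15 and 3.35 at baseline (-0.44 ± 0.07, adjusted p = 0.00335). These 3 separated the groups and passed with any of the 8 rats left out, but all lay below the median level of 4.89 over all probe sets. Without C1 and C3 together Shisa6 passed (adjusted p = 0.00986), and Cib4 and Ppp1r3g did not (adjusted p = 0.0792 and 0.145). Fer1l4, the histamine receptor Hrh3, Fam229b and the syntaxin Stx19 fell by 0.69, 0.61, 0.49 and 0.48, and of these Fer1l4 passed without C13 (adjusted p = 0.0439).

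Cd74 and RT1-Da rose, and 11 of 12 genes of MHC class II presentation had a positive difference. These molecules pair an alpha and a beta chain, ride with the invariant chain Cd74 through the cell and display peptides on dendritic cells, macrophages, B cells and, in the gut, enterocytes. Their promoters are known to share an X box and an inverted CCAAT (Y) box, which the regulators RFX and NF-Y bind. The promoters of Cd74 and RT1-Da, which passed the test, and of RT1-Db1, which narrowly missed it, are shown here from RefSeq (GRCr8, 250 bases before to 50 after the start), with capitals for TAGCAAC, a stretch of the X box, and for GATTGG or its reverse complement CCAATC, the inverted CCAAT box. They are RT1-Da at chr20:4515165-4515464 (plus strand), Cd74 at chr18:56526956-56527255 (plus strand) and RT1-Db1 at chr20:4560113-4560412 (minus strand).
RT1-Da: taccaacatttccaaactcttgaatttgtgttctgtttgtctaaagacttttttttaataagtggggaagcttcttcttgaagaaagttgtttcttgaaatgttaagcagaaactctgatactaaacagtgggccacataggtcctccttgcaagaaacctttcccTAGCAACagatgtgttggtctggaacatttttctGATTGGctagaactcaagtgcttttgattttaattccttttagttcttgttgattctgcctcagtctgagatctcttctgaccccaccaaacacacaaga
Cd74: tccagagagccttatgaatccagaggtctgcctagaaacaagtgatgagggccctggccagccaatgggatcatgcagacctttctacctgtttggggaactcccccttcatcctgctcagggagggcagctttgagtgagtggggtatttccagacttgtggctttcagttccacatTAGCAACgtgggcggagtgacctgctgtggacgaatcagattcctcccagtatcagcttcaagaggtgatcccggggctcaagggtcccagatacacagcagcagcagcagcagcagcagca
RT1-Db1: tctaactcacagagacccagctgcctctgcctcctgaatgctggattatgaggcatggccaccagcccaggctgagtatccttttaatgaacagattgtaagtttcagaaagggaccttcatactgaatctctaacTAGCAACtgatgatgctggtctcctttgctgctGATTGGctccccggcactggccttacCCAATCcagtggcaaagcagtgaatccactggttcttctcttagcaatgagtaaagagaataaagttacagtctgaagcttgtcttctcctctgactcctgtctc
TAGCAAC began 84 bases before the start in RT1-Da, 72 in Cd74 and 114 in RT1-Db1. GATTGG began 50 bases before the start in RT1-Da and 81 in RT1-Db1, which holds the other-strand letters as well at 55. Searched on both strands, TAGCAAC was in 4 of the 10 listed class II genes that had a promoter in the table (Cd74, RT1-Da, RT1-Db1 and RT1-DOb), against 3.58% of all 33469 promoters, and GATTGG in 7 of 10, against 14.8%. These matches describe letters and say nothing of binding in these rats.

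RT1-Da, the alpha chain of the rat D molecule (chr20:4515393-4520387), measured 11.15, 10.99, 11.48 and 11.41 in ZL placebo rats and 9.99, 10.58, 10.996 and 10.08 in ZL baseline rats. Only C3 at baseline reached the placebo range. The difference was 0.84 ± 0.19 (1.80-fold, adjusted p = 0.0272), and it was 0.93 without C13 (adjusted p = 0.0439) and 0.93 without C1 and C3 (adjusted p = 0.104). Cd74 measured 12.62, 12.50, 12.66 and 12.69 on placebo and 11.97, 12.24, 12.37 and 12.21 at baseline, without overlap (0.42 ± 0.08, adjusted p = 0.0151, 0.0213 without C13 and 0.145 without C1 and C3). RT1-Db1, the beta chain that pairs with RT1-Da, measured 8.67, 8.90, 9.11 and 9.21 on placebo and 8.24, 8.44, 8.59 and 7.92 at baseline, again without overlap, and its difference of 0.67 ± 0.18 did not pass (adjusted p = 0.0546). Of 12 class II genes, 2 rose, none fell, 11 had a positive difference, and the median was 0.43, or 0.48 without C13. Over all genes 53.0% were positive, and 0.733% of all probe sets rose. The mean of the 12 was 9.45, 9.15, 9.61 and 9.64 in ZL placebo rats and 8.57, 9.14, 9.42 and 9.01 in ZL baseline rats, with C1 lowest.

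RT1-Bb, the beta chain of the rat B molecule, behaved unlike the others. It measured 11.22, 6.46, 11.47 and 10.93 in ZL placebo rats and 6.82, 10.21, 11.12 and 10.18 in ZL baseline rats. C13 and C1 thus sat far below the rest of their own groups. Over the whole series 6 arrays, 2 of them ZL, lay between 6.33 and 7.39, and the other 26 between 10.2 and 11.5. Its difference of 0.44 ± 1.12 was smaller than its standard error.

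Markers of the cells that carry or surround class II molecules varied from rat to rat. Fibroblast markers averaged 7.15, 7.35, 8.22 and 8.04 in ZL placebo rats and 6.32, 7.93, 8.27 and 6.63 in ZL baseline rats, where C1 and C4 were low and C2 and C3 were within the placebo range or above it. Macrophage markers averaged 6.33, 6.93, 6.99 and 6.98 on placebo and 6.03, 6.94, 7.21 and 6.17 at baseline, with the same rats low. Dendritic cell markers averaged 5.49, 6.08, 5.91 and 5.88 on placebo and 5.07, 5.69, 5.76 and 5.26 at baseline. None of the 13 fibroblast, 13 macrophage, 14 dendritic cell or 9 endothelial markers passed, although 12, 11, 13 and 9 of them had a positive difference, with medians of 0.37, 0.27, 0.32 and 0.36. Over all 17245 genes 53.0% were positive, with a median of 0.01. The part of these cells in the class II difference was not tested.

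**Figure D3:**
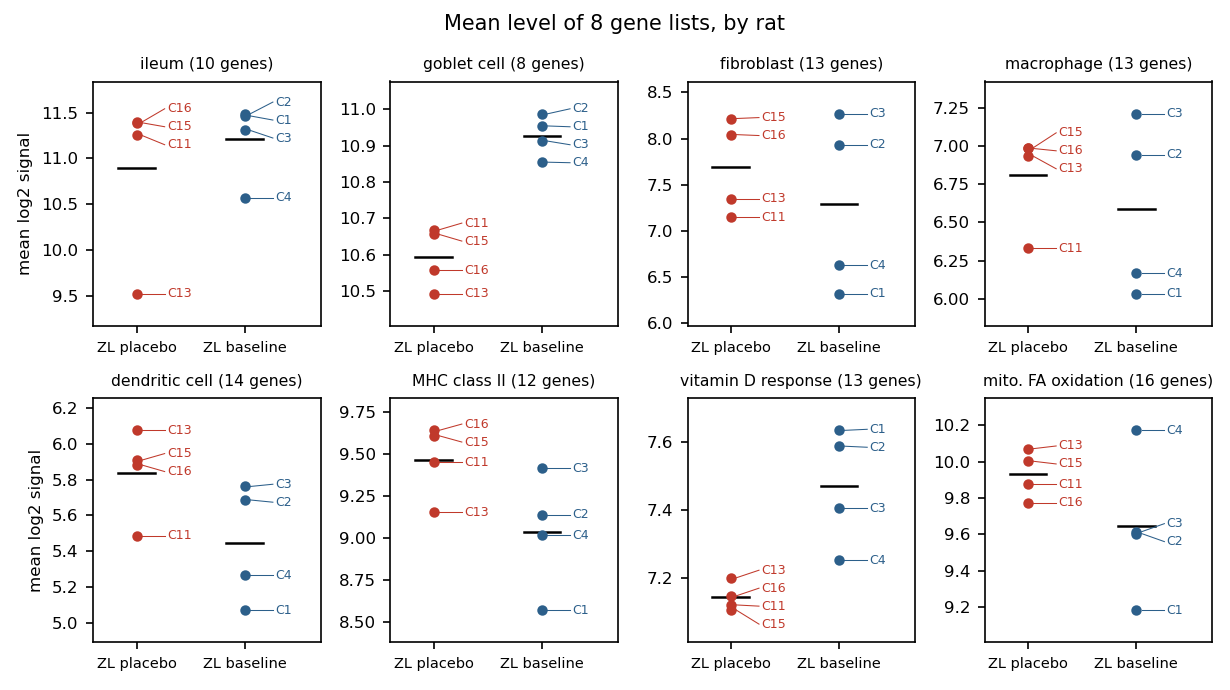
Mean log2 signal (y axis, a range of its own in each panel) of 8 gene lists in the 4 ZL placebo rats (left) and the 4 ZL baseline rats (right), with the rat beside each point and the group mean as a bar. Goblet cell and vitamin D response genes did not overlap between the groups, C13 was lowest for ileal markers at 9.52, and C1 was lowest for fibroblast markers at 6.32.

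Among genes of lymphocytes, Klrb1b, a lectin-like receptor of natural killer cells, measured 6.32, 7.24, 6.1 and 6.75 in ZL placebo rats and 5.60, 5.57, 5.69 and 6.0 in ZL baseline rats. The groups were separate, with C13 far above the rest, and the rise of 0.89 ± 0.18 (adjusted p = 0.0202) did not pass without it (adjusted p = 0.084). It was the 1 of 15 natural killer and cytotoxic cell markers to pass, where 0.733% of all probe sets were higher. Rgs1, which dampens chemokine receptor signals in lymphocytes, rose by 0.79 (adjusted p = 0.0314, and 0.127 without C13). Cxcl11, an interferon-induced chemokine that draws T cells through the receptor Cxcr3, measured 8.04, 8.78, 8.26 and 8.46 on placebo and 8.05, 7.02, 7.80 and 7.32 at baseline. Only C1 overlapped the placebo rats. The difference of 0.84 ± 0.18 (adjusted p = 0.0224) was 1.22 without C1 and C3 (adjusted p = 0.00777) and 0.71 without C13 (adjusted p = 0.0908). None of the 17 interferon-stimulated genes listed passed, and their median was 0.27. Jchain, which joins the units of secreted IgA and IgM in plasma cells, measured 10.58, 10.86, 11.06 and 10.85 on placebo and 8.76, 9.84, 10.25 and 8.87 at baseline. All placebo rats lay above all baseline rats, C1 and C4 being lowest, yet the difference of 1.41 ± 0.37 did not pass (adjusted p = 0.0564). The 12 B and plasma cell markers had a median of 0.38 and 10 positive differences, against 53.0% positive over all genes, and none passed.

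The rises of greatest size, and some of the larger falls, were in probe sets to which the gene table gives no symbol. Probe set 10856202 measured 8.24, 8.75, 10.01 and 8.61 in ZL placebo rats and 3.88, 7.54, 7.06 and 5.64 in ZL baseline rats (2.87 ± 0.64, 7.31-fold, adjusted p = 0.0285). Probe set 10892548 measured 6.85, 8.05, 7.67 and 7.54 on placebo and 4.47, 5.34, 6.02 and 3.78 at baseline (2.62 ± 0.57, 6.15-fold, adjusted p = 0.0235). Both separated the groups, and neither passed without C13 (adjusted p = 0.0651 and 0.0769). Probe sets 10924667 and 10817222 fell by 0.85 and 0.81 on the log2 scale, and they did not pass without C13 either (adjusted p = 0.141 and 0.145).

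Hspa8, the constitutive Hsp70 chaperone that folds new proteins and strips clathrin from vesicles, was higher by a small and even step. It was chosen after its values were seen, because 9 probe sets carry its symbol. Heat shock factors are known to bind repeats of the letters nGAAn, and its promoter (RefSeq, GRCr8, chr8:50080264-50080563, plus strand) is shown with capitals for TTCNNGAA, a pair of such repeats on opposite strands.
Hspa8: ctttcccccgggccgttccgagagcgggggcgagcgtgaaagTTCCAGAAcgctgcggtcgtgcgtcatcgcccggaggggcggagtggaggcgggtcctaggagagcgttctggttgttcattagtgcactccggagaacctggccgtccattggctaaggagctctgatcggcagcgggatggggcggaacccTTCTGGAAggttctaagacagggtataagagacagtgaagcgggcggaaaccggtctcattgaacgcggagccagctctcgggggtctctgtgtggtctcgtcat
The matches began 208 and 55 bases before the start, and the same letters are in 8.77% of all 33469 promoters on either strand. All 9 probe sets rose, by 0.24 to 0.39 on the log2 scale, with adjusted p-values of 0.00335 to 0.0203. They were also higher in ZO placebo than in ZO baseline rats, by 0.23 to 0.34. The probe set with the highest mean measured 12.99, 12.96, 13.05 and 12.97 in ZL placebo rats and 12.67, 12.85, 12.67 and 12.81 in ZL baseline rats. The 4 placebo rats were close together and above all baseline rats. Of the 9, 7 passed with any of the 8 rats left out, but none of those 7 without C1 and C3 together (adjusted p = 0.145 to 0.231). The 9 probe sets may read the same or near-identical transcripts and are not independent.

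Other chaperones had positive differences as well. Hsp90b1, the Hsp90 of the endoplasmic reticulum, measured 11.39, 11.55, 11.47 and 11.25 in ZL placebo rats and 11.08, 11.17, 10.81 and 11.23 in ZL baseline rats (0.35 ± 0.09, adjusted p = 0.047, and 0.143 without C13). Hsp90aa1, the inducible cytosolic Hsp90, measured 9.76, 10.17, 10.19 and 9.84 on placebo and 8.76, 9.35, 8.60 and 9.58 at baseline, and Hsph1, a partner of Hsp70, measured 8.14, 9.06, 8.84 and 8.18 on placebo and 7.17, 7.67, 7.40 and 7.83 at baseline. Neither group pair overlapped, and neither difference passed (0.92, adjusted p = 0.0513, and 1.04, adjusted p = 0.0656). Of the 11 chaperones listed, which leave out Hspa8, 1 rose, against 0.733% of all probe sets. All 11 had a positive difference, against 53.0% of all genes, and the median was 0.42. That median was 0.22 without C1 and C3. TTCNNGAA was in 3 of the 10 listed chaperones with a promoter in the table, namely Hspd1, Hspe1 and Hsph1.

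Other named rises came from several pathways. Nab2, a repressor of EGR transcription factors that was chosen after its values were seen, measured 6.83, 6.84, 7.07 and 7.08 in ZL placebo rats and 6.26, 6.16, 6.51 and 6.26 in ZL baseline rats. The groups stood apart, and the difference of 0.66 ± 0.12 (adjusted p = 0.00653) passed with any of the 8 rats left out. Jag1, a ligand of Notch, rose by 0.77 (adjusted p = 0.031), and Fzd8, a receptor of Wnt, by 0.75 (adjusted p = 0.0409). C13 was the highest rat for both, and neither passed without it (adjusted p = 0.121 and 0.144). Ccdc117, the 1 of 33 genes named in the study to pass here, measured 7.76, 8.05, 8.12 and 8.20 on placebo and 7.12, 7.45, 7.16 and 7.30 at baseline (0.78 ± 0.19, adjusted p = 0.0397, and 0.0957 without C13). Slc3a2, the shared heavy chain of amino acid exchangers, rose by 0.35 (adjusted p = 0.0477, and 0.16 without C13), and was the 1 of 14 amino acid and peptide transporters to pass. Of all probe sets, 0.733% were higher.

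Adamdec1 and Ptgs1, inflammation genes that the study names, did not pass in ZL rats, nor in ZO rats (adjusted p = 0.452 and 0.973). In ZO rats Adamdec1 was higher on placebo by 1.18 on the log2 scale. The study reports a rise of both in ZO rats by qRT-PCR and western blot, with more rats per group, and no protein change in ZL rats. Here 4 rats per group were tested on arrays, with adjustment over all probe sets, which is a different measure. Adamdec1, a protease of gut macrophages and dendritic cells, measured 9.16, 8.96, 10.42 and 10.25 in ZL placebo rats and 7.44, 9.78, 10.33 and 7.94 in ZL baseline rats. Its baseline rats fell into a low pair, C1 and C4, and a high pair, C2 and C3, as the macrophage markers did. The fibroblast markers did so too, but Adamdec1 is itself a member of that list. The difference of 0.83 ± 0.61 lay within that spread (adjusted p = 0.514). Ptgs1, the cyclooxygenase COX-1, measured 7.33, 7.66, 8.08 and 8.80 on placebo and 7.63, 8.07, 8.48 and 7.0 at baseline, with full overlap (0.17 ± 0.32, adjusted p = 0.83).

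Genes of fatty acid oxidation differed among the baseline rats by more than between the groups. The mean of 16 mitochondrial genes was 9.88, 10.07, 10.00 and 9.77 in ZL placebo rats and 9.18, 9.60, 9.61 and 10.17 in ZL baseline rats, so that C4 exceeded every placebo rat. Hadh, a dehydrogenase of the mitochondrial cycle, measured 11.18, 11.50, 11.21 and 11.03 on placebo and 10.48, 10.79, 10.54 and 11.34 at baseline (0.44 ± 0.12, adjusted p = 0.0616). Hsd17b4, which carries out the middle steps of the peroxisomal cycle, measured 10.11, 10.14, 10.27 and 10.19 on placebo and 8.98, 9.29, 9.43 and 10.45 at baseline (0.64 ± 0.18, adjusted p = 0.0674). In both genes C1, C2 and C3 lay below the placebo rats and C4 did not. None of the 16 mitochondrial genes passed, with a median of 0.28 that was 0.07 without C1 and C3. Of 12 peroxisomal genes Amacr alone passed, where 0.733% of all probe sets were higher in ZL placebo rats. Slc27a2, which imports and activates very long-chain fatty acids, differed by 1.95 ± 0.58 (adjusted p = 0.0836). In ZO rats the medians of the mitochondrial and peroxisomal lists were 0.55 and 0.78, with 9 and 6 genes past the threshold, where 0.691% of all probe sets were higher.

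Goblet cells, which secrete the mucus layer, had a list mean that separated the groups without any gene passing. The same held among the 56 lists for sugar digestion genes (higher) and for eosinophil and neutrophil markers (lower). Of single probe sets, 5.88% separated the groups in either direction. The eosinophil and neutrophil mean was 3.50 on placebo and 3.62 at baseline, a small step below the median level of 4.89 over all probe sets. The mean of the 8 goblet cell markers was 10.67, 10.49, 10.66 and 10.56 in ZL placebo rats and 10.95, 10.99, 10.91 and 10.85 in ZL baseline rats. Spink4, a protease inhibitor of goblet cells, had the largest difference of the 8 and measured 8.98, 10.10, 9.03 and 8.47 on placebo and 10.80, 10.59, 10.01 and 10.28 at baseline. C13 overlapped the baseline rats, and the difference of -1.27 ± 0.38 did not pass (adjusted p = 0.0854). The median over the list was -0.09.

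Digestive and barrier genes had wide differences that did not pass. Treh, the brush border enzyme that splits trehalose, measured 6.86, 10.45, 7.29 and 8.01 in ZL placebo rats and 6.19, 5.55, 6.43 and 7.03 in ZL baseline rats (1.85 ± 0.48, adjusted p = 0.0513). C13 was higher by itself than all others, and without it the difference was 1.09. Scarb1, a lipoprotein and sterol receptor, measured 8.21, 11.10, 8.40 and 10.10 on placebo and 6.35, 6.81, 8.03 and 8.06 at baseline (2.14 ± 0.57, adjusted p = 0.0566). The groups did not overlap, though C11 and C15 lay just above C3 and C4. Cldn1, a tight junction protein, measured 6.39, 5.91, 6.16 and 5.86 on placebo and 4.87, 5.62, 5.71 and 5.29 at baseline (0.71 ± 0.19, adjusted p = 0.0594). Of 23 subunits of the mitochondrial respiratory chain, none passed, yet 22 had a positive difference, against 53.0% of all genes. Their median was 0.22, and it was 0.08 without C13, 0.10 without C1 and C3 and 0.16 after quantile normalization. With the dimmest 30% of probe sets left out, 59.2% of all differences were positive.

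The same 30 days in ZO rats were set beside these changes. In ZO rats 398 probe sets passed (1.36%), of which 202 were higher (0.691%) and 196 lower (0.671%) on placebo than at baseline. Of the 214 probe sets higher in ZL placebo rats, 177 had the same sign in ZO rats (82.7%) and 31 also passed there. Of the 52 lower, 41 had the same sign (78.8%) and 3 passed. Over all probe sets the sign was shared by 60.8%, and none of the 266 passed in the opposite direction. The 2 comparisons share no rats, but they share the estimate of the spread. Akr1c19 rose by 0.90 in ZO rats (adjusted p = 0.00272), Maob by 0.78 (adjusted p = 0.0045), RT1-Da by 0.96 (adjusted p = 0.00529) and Cd74 by 0.41 (adjusted p = 0.00728). Plet1 differed by -2.07 in ZO rats (adjusted p = 0.00856), beside -2.05 in ZL rats. RT1-Db1, Jchain, Cldn1, Hsph1 and Spink4, which did not pass in ZL rats, passed in ZO rats, with differences of 0.76, 1.48, 0.97, 1.21 and -1.58.

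**Figure D4:**
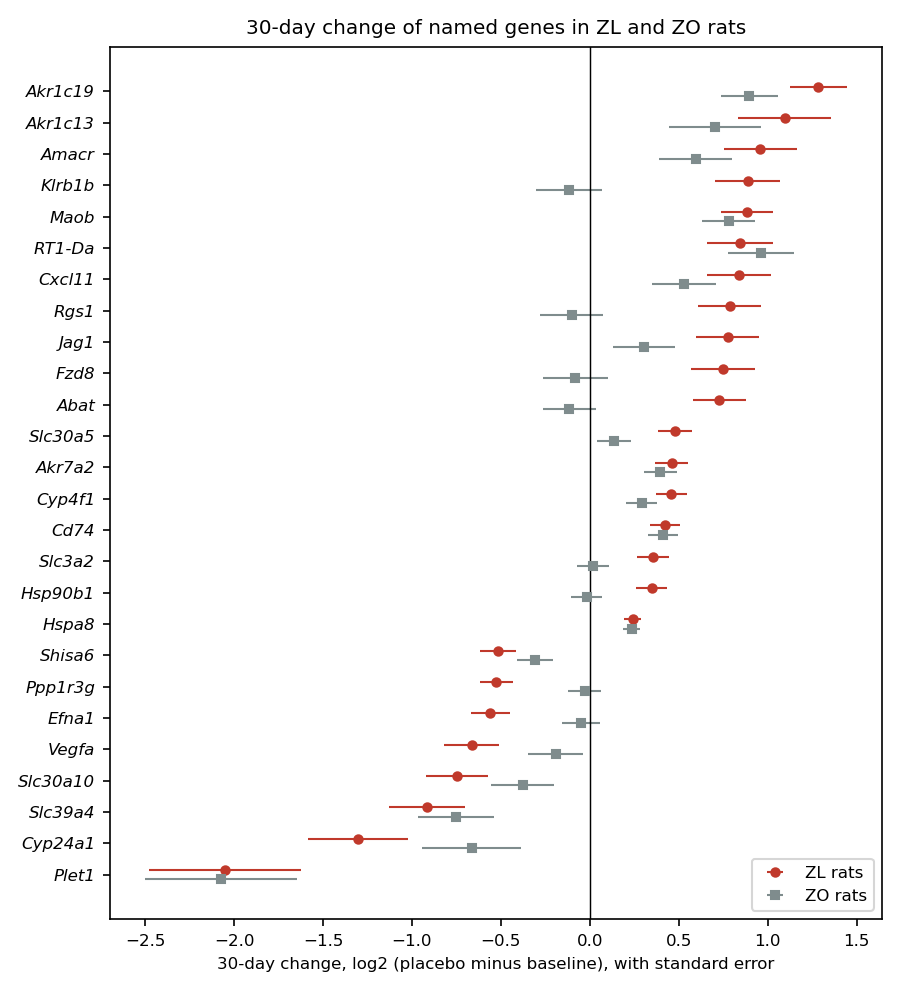
Log2 difference between placebo and baseline (x axis) of 26 named genes past the threshold in ZL rats (y axis, in order of size), as circles for ZL rats and squares for ZO rats, with the standard error as a line. Plet1, Maob, RT1-Da, Cd74 and Hspa8 lay close together in both, while Klrb1b, Rgs1, Fzd8 and Abat were near 0 in ZO rats.

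Other genes differed in ZL rats with little or no difference in ZO rats, but the difference between ZL and ZO changes did not pass for any of those named. Abat was 0.73 higher in ZL rats and differed by -0.12 in ZO rats, a difference between the changes of 0.84 ± 0.21 (adjusted p = 0.197). Klrb1b differed by 0.89 and -0.12 (difference 1.00 ± 0.26, adjusted p = 0.202), Cib4 by -0.44 and 0.00 (adjusted p = 0.164) and Ppp1r3g by -0.53 and -0.03 (adjusted p = 0.218). Over all 29214 probe sets, 1 passed this test (0.00342%), and 2487 had an unadjusted p under 0.05. It was probe set 10817759, with no symbol, at 7.10, 7.83, 8.18 and 7.80 in ZL placebo rats and 7.0, 7.29, 7.99 and 7.86 in ZL baseline rats. It rose by 4.08 in ZO rats (16.9-fold), so that the change in ZL rats was lower by 3.89 ± 0.36 on the log2 scale.

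The calls that held with any of the 8 rats left out numbered 22, of which 18 were higher and 4 lower. They were Akr1c19, Maob, Nab2, Tmem229a, Atg4c, Lin52, Jade1, 7 probe sets of Hspa8 and 4 probe sets with no symbol among the rises, and Cib4, Ppp1r3g, Shisa6 and Rsph1 among the falls. Atg4c is a protease of autophagy, Lin52 a subunit of the cell cycle complex DREAM, Jade1 a subunit of a histone acetyltransferase complex and Rsph1 a part of the radial spokes of cilia. In ZO rats 10 of the 22 passed as well, namely Akr1c19, Maob, Lin52 and the 7 probe sets of Hspa8, whereas Atg4c differed by -0.10, Rsph1 by -0.08 and Tmem229a by 0.11. Without C1 and C3 together 4 of the 22 passed.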

How the data were processed

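Intestinal mucosa of 32 male Zucker rats was measured with 1 array per rat, of which 4 ZL placebo and 4 ZL baseline arrays were compared here. The authors' methods name RMA, and among the submitters' processing notes stands the Affymetrix Expression Console, without a version. The deposited values are scores, namely log2 RMA signals that, with few exceptions, have lost their decimal point. A point was set behind digit 2 for numbers starting with 10 to 13 and behind digit 1 for the rest. This gave 63652 values of at least 10, and for 8 of them (7 on ZL arrays, 4 on C13) the smaller reading is closer to the other arrays. The tests had been planned for log2 values and were run on the restored ones, whose array medians were 4.79 to 4.97. Arrays have no read depth, and their number limits the precision.

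Of 29214 probe sets, 18644 carried 1 symbol (17245 genes), 962 several and 9608 none. Names came from the platform's annotation. Differences were tested with limma 3.58.1 in R 4.3.3, after reading with the package data.table (1.17.8), in 1 model of 5 group means over all 32 arrays (27 residual degrees of freedom), with Benjamini-Hochberg adjustment across the array and calls at 0.05. All probiotic rats formed 1 of the 5 groups, whatever their strain. The model was tested on simulated data with 29214 probe sets, where it recovered 67% of 1.5-fold and 87% of 2-fold changes with 7 false calls. The simulated noise was normal and independent between arrays, with 1 spread per probe set over all 5 groups. It held no outlying arrays, so the false calls among the measured arrays cannot be read from it. Promoters came from RefSeq (GRCr8).

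Genes were named by a rule: the 14 with the largest rises and the 14 with the largest falls past the threshold, members of each list past the threshold or with the smallest p up to 4, and the genes the study names. Members and lists were chosen with earlier results of these data known. Counts of list members past the threshold stand beside 0.733% of all probe sets higher and 0.178% lower. Of 56 lists, those with a member past the threshold were aldo-keto reductases (3), MHC class II (2), vitamin D (2), zinc and manganese (3), and amine oxidation, peroxisomal oxidation, P450, chaperones, amino acid transporters, natural killer cells and the study's genes (1 each), and the other lists had 0. Slc30a10 is counted both with vitamin D and with zinc and manganese. Alternatives were quantile normalization, median centring, leaving out the dimmest 30% of probe sets, 1 probe set per gene, other models, array weights, the position in the sample list as a block, the methods' t-test, another decimal rule and leaving out rats. Some of the study's genes were not analysed here, and 1 gene that the rule names is not reported here.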

Additional observations from a re-analysis of the deposited data

Results flagged for a closer look

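In 142 groups of 4 rats whose values were examined, 8 held a rat whose distance from the nearest of the other 3 took up most of the range of the group, which chance does in about 1 group in 20. Of these, 7 were C13 in the ZL placebo group. Akr1c19 was 8.84 in C13 and 8.04 to 8.14 in the other ZL placebo rats. RT1-Bb was 6.46 in C13 and 10.9 to 11.5 in the others. Phyh, the peroxisomal enzyme that starts the breakdown of phytanic acid, was 10.9 in C13 and 10.0 to 10.1 in the others. The ileal bile acid genes Fabp6 and Slc10a2 were 8.71 and 7.01 in C13, against 13.2 to 13.3 and 11.3 to 11.7 in the others. Pyy was 5.17 in C13 and 8.99 to 9.13 in the others, and the mean of the 10 ileal markers was 9.52 in C13 and 11.3 to 11.4 in the others. The mean of the 13 macrophage markers was 6.33 in C11 and 6.93 to 6.99 in the other ZL placebo rats.

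The 30-day change of probe set 10817759 differed between ZL and ZO rats by -3.89 on the log2 scale in the test of the difference itself, with adjusted p = 1.81e-07 in the limma model.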

How the results depend on the processing

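No paired analysis was possible because the ZL baseline rats were euthanized before the placebo period, so the groups are different animals. The ZL baseline rats are numbered 1 to 4 and the ZL placebo rats 11, 13, 15 and 16. The count of 266 probe sets in ZL rats was 66 after quantile normalization, 85 after median centring, 73 with array weights and 401 with the position in the sample list as a block. It was 0 when the model held the ZL arrays alone, and 1 by the methods' t-test after adjustment (2743 and 2717 at an unadjusted p under 0.05), and 32 to 1281 with 1 ZL rat left out. In settings chosen after seeing the data, it was 1 in a model of the 4 baseline and placebo groups, 10 without C1 and C3 and 4 without C1, C3 and C13. It was 319 without the dimmest 30% of probe sets, 275 with 1 probe set per gene and 267 with the other decimal rule. The count of 398 in ZO rats was 149 in the model of 4 groups, 1231 with array weights, 28 by the t-test, 655 without C1, C3 and C13, 172 to 356 with 1 ZO rat left out and 376 to 511 with 1 ZL rat left out. The 1 probe set that differed between ZL and ZO changes became 4 with 1 probe set per gene (Ramac, Hsd3b2, Ndrg3 and Bco2), 3 in the model of only these groups and in the model of 4 groups, 2 without C1, C3 and C13, and 1 to 6 with 1 rat left out.

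For 35 genes named as past the threshold, 697 alternative values kept their direction, of which 310 no longer passed. The kept direction is no further evidence, as these genes were selected for a difference between the same rats. Past the threshold were 13 of the 35 genes without C13, 10 without C1 and 5 without C1 and C3. Direction turned only in genes that did not pass. With 1 rat left out RT1-Bb ranged between -0.48 (C1) and 1.62 (C13), Fabp6 between -1.49 (C15) and 0.045 (C13), and Slc10a2 between -1.25 (C4) and 0.49 (C13). Without C1 and C3, RT1-Bb was -0.18 and Slc10a2 0.015, and without C13 as well, Slc10a2 was 1.13 and Pyy 0.061. The cause was not tested.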
